A study of Homo sapiens with 3 samples.

Results

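Heat shock proteins and their co-chaperones were examined as a set of 48 named genes, defined by family membership. They were followed in MHCC97Low, a human hepatocellular carcinoma line of low metastatic potential, and in 2 sublines derived from it, the cisplatin-resistant MHCC97L/CisR (CisR below) and the doxorubicin-resistant MHCC97L/DoxR (DoxR below). All 3 lines were grown in DMEM with 10% FBS and had the label "No treatment", so none is described as drug-exposed at harvest, and drug dose, selection time and clonal origin are not given in the sources used here. Total RNA from each line was hybridised to 1 Affymetrix U133 Plus 2.0 array, which gives no replicate, no test and no error between cultures, so every difference below is between single arrays.

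Of the 48 genes, 43 had a probe set of their own, 96 probe sets in all, among the 19775 genes on the array with one. HSPA1A, HSPA1B and HSPA8 had only probe sets that the annotation shares with other genes, and AHSA1 and HSF2 were not analysed here. HSPB11 was found under its current symbol, IFT25. Each gene stands for its probe set with the highest mean signal. The pooled median signal, 76.9 units, served as a floor to which lower signals were raised on the log2 scale, and a gene was compared when at least 1 of its 2 signals was above the floor. A fold is written "at least" where the dimmer array lay under the floor. The members above the floor on all 3 arrays numbered 38, those above it on only 1 or 2 arrays 3 (HSPA1L, HSPA6 and DNAJB5), and HSPB2 and HSPB6, by their own probe sets, lay under it on all 3, leaving 41 members compared.

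Heat shock proteins are chaperones that bind unfolded protein. The small heat shock proteins hold it in a soluble form without using ATP, HSP70 folds it in ATP-driven cycles started by J-domain proteins and ended by nucleotide exchange factors, and HSP90 takes over late folding of kinases, steroid receptors and other clients. Many of these genes are induced by heat shock factor 1 (HSF1), which binds heat shock elements, inverted repeats of GAA and TTC, near the start of its target genes. Hepatocellular carcinomas often hold raised levels of several of them.

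The heat shock elements of the members are shown first, so that members on either side of 2-fold can be set against them. Promoters of 300 bases, 250 before and 50 after a gene's start, were taken from RefSeq (GRCh38.p14), which held 64 for 43 of the members and none for CRYAB, HSPB2, STUB1, FKBP4 and HSF1. The element of 3 units was searched as GAANNTTCNNGAA and TTCNNGAANNTTC, which are each other's reverse complement, so both strands were covered. It was present in 8 members and in 12.5% of their promoters, against 0.490% of all 35116 promoters. The windows below carry the match in capitals with up to 20 bases on each side, 5′ to 3′ on the gene's strand.
HSPA6 (chr1:161524446-161524498, plus strand): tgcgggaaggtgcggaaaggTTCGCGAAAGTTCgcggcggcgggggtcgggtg
HSPA8 (chr11:123062159-123062211, minus strand): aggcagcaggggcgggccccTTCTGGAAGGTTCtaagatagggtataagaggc
HSP90AA1 (chr14:102087100-102087152, minus strand): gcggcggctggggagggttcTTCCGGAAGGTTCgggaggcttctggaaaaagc
HSP90AB1 (chr6:44247811-44247863, plus strand): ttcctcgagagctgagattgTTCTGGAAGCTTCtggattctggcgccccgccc
DNAJB6 (chr7:157336853-157336905, plus strand): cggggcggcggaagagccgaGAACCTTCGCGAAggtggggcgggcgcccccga
SERPINH1 (chr11:75562157-75562209, plus strand): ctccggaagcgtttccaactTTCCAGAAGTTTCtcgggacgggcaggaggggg
HSPA8 and HSP90AB1 each held another match further from the start. HSPD1 and DNAJA1 were the other members with a match. Of the 7 members with the element and a probe set of their own, 1 lay past 2-fold in the DoxR array (HSPA6) and none in the CisR array, where 5.75% and 5.4% of all compared genes did. With so few members these counts say nothing of the element. Their log2 differences from parental ran from -1.20 to 0.08 in the former and from -0.68 to 0.13 in the latter, and their medians were -0.13 and -0.09. A match describes these letters and not binding of the factor.

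The shorter element of 2 units was searched as GAANNTTC and TTCNNGAA, each of which is its own reverse complement and lies inside the longer one. It was present in 35.9% of the members' promoters and 13.5% of all promoters. The inducible genes HSPA1A and HSPA1B each held 1 such match, and HSPA1A lies head to head with HSPA1L, so that 241 bases of their promoters are the same DNA read on opposite strands. The 250 bases before HSPA1A carry the match in capitals.
HSPA1A (chr6:31815293-31815542, plus strand): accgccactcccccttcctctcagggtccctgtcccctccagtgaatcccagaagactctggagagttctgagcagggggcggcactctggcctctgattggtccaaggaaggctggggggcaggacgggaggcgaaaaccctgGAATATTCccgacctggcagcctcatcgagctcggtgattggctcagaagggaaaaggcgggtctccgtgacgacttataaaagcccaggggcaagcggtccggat
Of the compared members, 1 of 11 with the shorter element alone and 3 of 19 with neither lay past 2-fold in the DoxR array, with medians of 0.00 and -0.01. The share over all compared genes was 5.75%, and these groups are too small to be told from it or from each other. CRYAB, also past 2-fold in the DoxR array, had no promoter entry and stood in none of the groups. Neither element was found in the 250 bases before DNAJC12, the member with the highest difference from parental. The capitals there mark CACGTG, its own reverse complement, found in 7.26% of all promoters, and CCAAT, found on either strand in 34.6%.
DNAJC12 (chr10:67838189-67838438, minus strand): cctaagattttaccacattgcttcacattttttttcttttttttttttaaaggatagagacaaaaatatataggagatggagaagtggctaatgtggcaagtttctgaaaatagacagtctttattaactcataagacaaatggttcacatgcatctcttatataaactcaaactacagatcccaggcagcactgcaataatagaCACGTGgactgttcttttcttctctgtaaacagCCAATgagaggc

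The arrays were alike in overall signal. Their median signals were 73.3 to 79.2, their means after trimming 2% of probe sets from each end were all 500.1, and 11872 to 12104 genes lay above the floor. The ratio of 3′ to 5′ signal was 1.49 to 1.53 for ACTB and 0.954 to 1.02 for GAPDH, and the poly-A spikes added before labelling had median log2 differences from parental of 0.08 in the CisR and -0.33 in the DoxR array. Of 4 epithelial markers, the keratins KRT8 and KRT18 and the cadherin CDH1 were above the floor on all 3 arrays. CDH1 had 798, 1708 and 3062 in the parental, CisR and DoxR arrays, and EPCAM was under the floor on each. Of 10 hepatocyte and hepatoma markers, 7 were above it in the parental array and 6 in each subline, with APOA1, APOA2 and GPC3 under it on every array. Their summed signal was 14499 in parental, 2182 in CisR and 7071 in DoxR, and albumin (ALB) had 1545, 3.17 and 3115. The summed signal of the 7 fibroblast markers was 778, 3387 and 1548 in the parental, CisR and DoxR arrays, of which lumican (LUM) gave 258, 2632 and 1167. COL1A1 had 309, 511 and 242, lowest in the DoxR array, and DCN (86.0) and THY1 (82.5) passed the floor only in the CisR array. COL1A2, COL3A1 and PDGFRB were under the floor on all 3 arrays. Among 4 endothelial markers, PECAM1 (1052, 802 and 827) and KDR (200, 285 and 190) were above it on every array. Only CD3E of 3 measured leukocyte markers passed it, at 86.6 in the CisR and 78.7 in the DoxR array. The part of these RNA quality, spike and marker values in the results below was not tested.

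The first comparison asked which members differed between the parental and the CisR line. Most did not reach 2-fold. CRYAB was 3.01-fold lower, and the J-domain proteins DNAJC6 and DNAJC12 were 2.35-fold and 2.22-fold higher. These were 3 of 41 members (7.32%), against 5.4% of 12699 compared genes, a share near the background. The background was 2.82% higher and 2.58% lower. At 1.5-fold, 3 members were higher (9.29% of all genes) and 3 lower (8.26%), 6 in all against 17.6%, and 19 of 41 lay below 0 (47.9%). The median log2 difference was 0.00 over the members and 0.02 over all compared genes.

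The second comparison asked the same of the DoxR line. CRYAB was again lower than parental, at 4.62-fold, and was joined by 3 members of the HSP70 family, HSPA2 at 2.64-fold, HSPA12A at 2.31-fold and HSPA6 at least 2.30-fold. DNAJC12 was 3.78-fold and DNAJC6 2.78-fold higher. These 6 of 41 members made 14.6%, against 5.75% of 12599 compared genes. The 4 lower members stand against a background of 2.75% lower, and the 2 higher ones against 2.99%. At 1.5-fold, 8 members were lower and 2 higher, with 8.62% of all compared genes lower and 9.1% higher, or 10 members against 17.7%. Below 0 lay 23 of 41 members and 49.6% of all genes. The median over the members was -0.06 and over all genes 0.00. Both comparisons share the parental array, and each comparison's own values are given side by side.

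**Figure D1:**
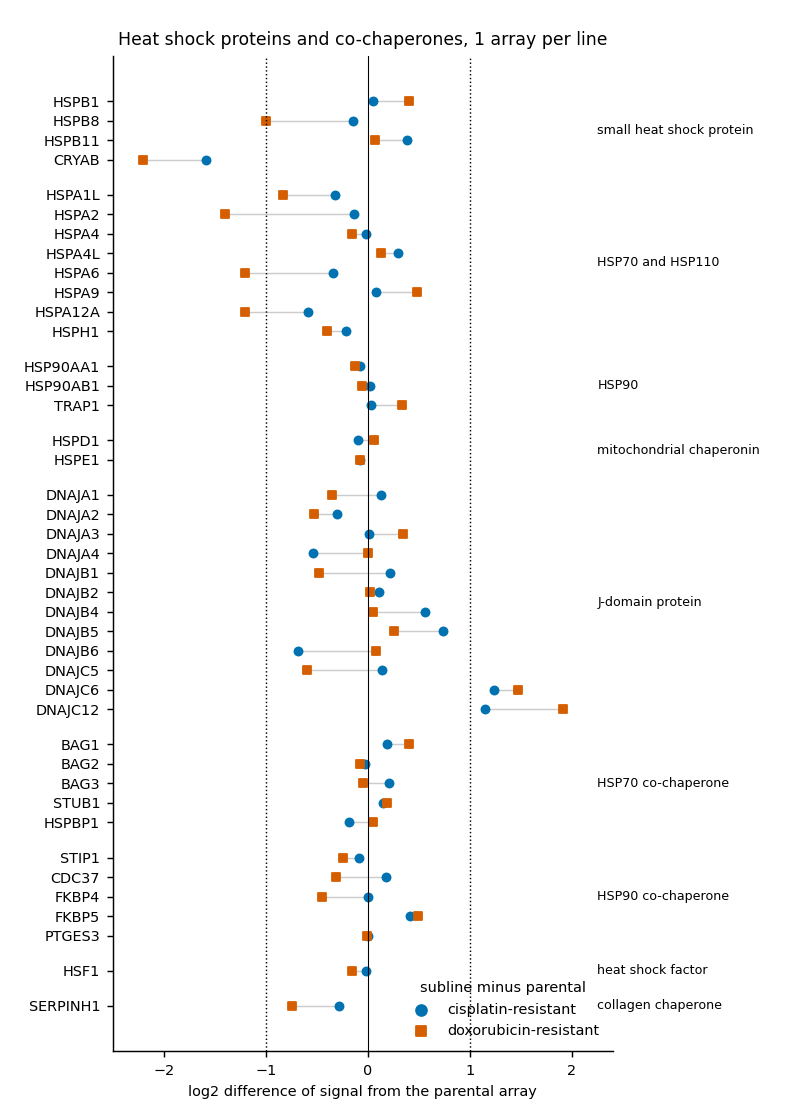
Log2 difference of signal from the parental array for the 41 compared members, grouped by role, with circles for the CisR and squares for the DoxR array and dotted lines at 2-fold. CRYAB lies furthest to the left at -1.59 and -2.21, DNAJC12 and DNAJC6 lie to the right of 2-fold in both sublines, and HSPA2, HSPA6 and HSPA12A pass 2-fold only in the DoxR array.

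Disagreement between probe sets of a gene, over the same 2 arrays, was described from genes with several probe sets. It does not measure variation between repeat cultures. In 5621 genes with at least 2 probe sets above the floor on both arrays, the log2 differences of the brightest and the next brightest lay a median of 0.21 apart in the DoxR against parental comparison, and under 0.64 apart in 90% of genes. Log2 differences under 0.21 are therefore no larger than the usual disagreement of probe sets within a gene. Signals of different genes come from different probes and were not set against each other. In whole cultures, fewer cells of a kind and less RNA per cell cannot be told apart.

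The small heat shock proteins ranged from the lowest member of the set to values above parental. CRYAB, alpha B-crystallin, had a signal of 474 in the parental, 157 in the CisR and 103 in the DoxR array, on its only probe set. The parental array was the high one, and both sublines lay nearer to the floor. Its log2 differences were -1.59 in CisR and -2.21 in DoxR, and 0.57% and 0.25% of compared genes lay lower still. With the floor raised to the 75th percentile of all signals, 440 units, most of the drop lay under it and both differences became -0.11. Its 14 nearest compared genes on chromosome 11 had a median difference of 0.09 and 0.06 in the CisR and DoxR arrays. HSPB2, which lies head to head with CRYAB, was under the floor on its own probe set at 5.54, 3.28 and 3.67. A probe set annotated to HSPB2, C11orf52 and their readthrough gene had 677, 569 and 492, 1.19-fold lower than parental in CisR and 1.38-fold in DoxR, and cannot be assigned to any of them.

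HSPB8, which works with BAG3 to pass clients to autophagy, had its lowest signal in the DoxR array. Its signals were 1910 in the parental, 1727 in the CisR and 958 in the DoxR array, the last 1.99-fold lower and just inside 2-fold. The other HSPB8 probe set, at 243, 245 and 157, was 1.54-fold lower. BAG3 itself had signals of 2834, 3276 and 2747, with log2 differences of 0.21 and -0.05.

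HSPB1 (HSP27), which caps actin filaments as well as holding clients, had signals of 22121, 22931 and 29354. The DoxR array was the highest, 1.33-fold above parental. The 14 nearest compared genes on chromosome 7 had a median log2 difference of 0.69 in that array, above the 0.41 of HSPB1, and of 0.04 in the CisR array. HSPB11, whose product belongs to the intraflagellar transport complex of cilia, had signals of 4596, 6013 and 4842. Its 3 probe sets were 1.31-fold to 1.70-fold higher in the CisR array. HSPB6 was listed under the floor at 56.1, 33.3 and 67.3.

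**Figure D2:**
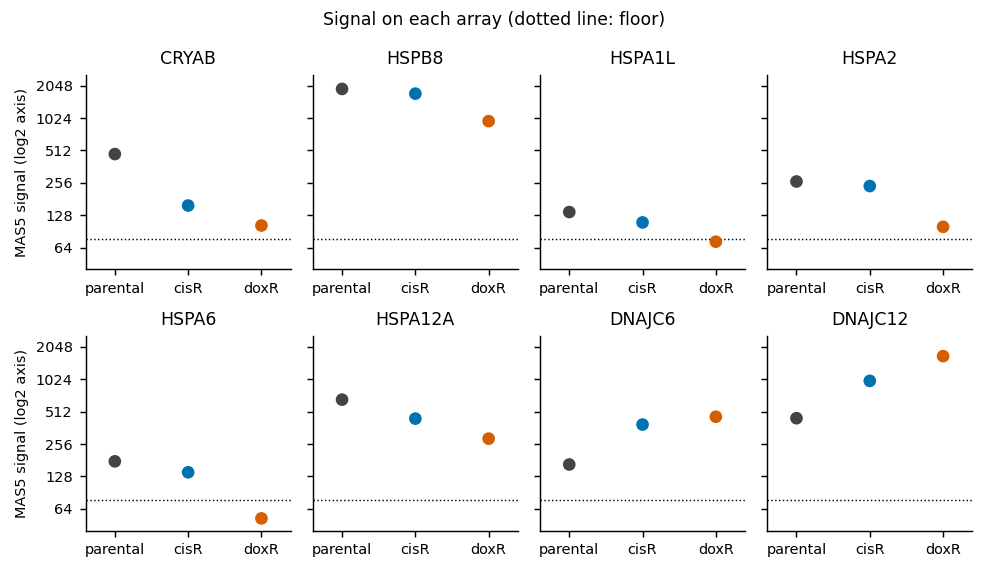
MAS5 signal on the parental, CisR (cisR on the axis) and DoxR (doxR on the axis) arrays, 1 point per array on a log2 axis, for the members past 2-fold and for HSPB8 and HSPA1L, with the floor of 76.9 dotted. CRYAB goes from 474 to 103 and DNAJC12 from 446 to 1683 between the parental and DoxR arrays, and HSPA6 and HSPA1L lie under the floor in the latter.

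Within the HSP70 family, 3 members were more than 2-fold lower in the DoxR array, and HSPA1L came close. HSPA2, an HSP70 abundant in testis, had signals of 263, 239 and 99.8 in the parental, CisR and DoxR arrays on its only probe set. The first 2 arrays were close and the DoxR array stood below both. HSPA6, a strictly stress-induced HSP70, had 177, 140 and 52.1, the last under the floor. Its other probe set, at 88.6, 89.2 and 17.0, was near the floor and gave only at least 1.15-fold. The 14 nearest compared genes on chromosome 1 had a median log2 difference of -0.38 in that array, and HSPA6 less that median was -0.82, inside 2-fold. HSPA12A, a distant relative with an atypical ATPase domain, had 663, 442 and 288, with the CisR array between the others at 1.5-fold lower. Its other probe set, at 4.70, 14.5 and 5.32, was under the floor on every array. At the higher floor of 440 units the log2 difference of HSPA12A in DoxR was -0.59, inside 2-fold, and HSPA2 and HSPA6 had no value. HSPA1L, a testis-enriched neighbour of HSPA1A, had 137, 110 and 72.5, at least 1.78-fold lower in the DoxR array. The other probe set of HSPA1L alone, at 5.04, 5.86 and 5.24, was under the floor on every array.

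The 3 probe sets annotated to both HSPA1A and HSPA1B, the main heat-inducible HSP70 genes, cannot be assigned to either. The first had 17383 in the parental, 14992 in the CisR and 11892 in the DoxR array. The second had 6957, 4962 and 3862. The third, also annotated to HSPA1L, had 11768, 10055 and 6650. All 3 were highest in the parental and lowest in the DoxR array, 1.46-fold to 1.80-fold below parental in the latter and 1.16-fold to 1.40-fold in the CisR array. None reached 2-fold.

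The probe sets of HSPA8, HSPA9 and the HSP110 proteins were within 2-fold. The 4 probe sets annotated to HSPA8, the housekeeping HSC70, and to 2 small nucleolar RNA genes had log2 differences of -0.24 to -0.10 in the CisR and -0.12 to 0.01 in the DoxR array. HSPA9 (mortalin), the mitochondrial HSP70, had signals of 8876, 9401 and 12407, 1.40-fold higher in the DoxR array. Its 2 other bright probe sets were 1.27-fold and 1.13-fold higher there. Among the HSP110 proteins, which exchange nucleotide on HSP70, HSPH1 had 5809, 4999 and 4411, and all 3 of its probe sets were lower in both sublines. They were 1.32-fold to 1.65-fold lower in the DoxR array. HSPA4 had 3429, 3388 and 3084, and HSPA4L had 389, 477 and 426. Of the 8 compared members of the HSP70 and HSP110 group, 3 were lower at 2-fold, 5 were within it and none was higher in the DoxR array, with a median of -0.61. Over all compared genes 2.75% were lower and 2.99% higher. In the CisR array none reached 2-fold, against 5.4% of all compared genes, and the median was -0.18.

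The HSP90 proteins and the mitochondrial chaperonin stayed close to parental by their bright probe sets. HSP90AA1, the inducible cytosolic form, had signals of 27429, 26060 and 25067. HSP90AB1, the constitutive form, had 20730, 20981 and 19900. Over the 7 probe sets of both genes, log2 differences from parental ran from -0.25 to 0.06 in the CisR and from -0.29 to -0.06 in the DoxR array. TRAP1, the mitochondrial HSP90, had 4916, 5038 and 6182, 1.26-fold higher in the DoxR array. The chaperonin subunit HSPD1 (HSP60) had 32682, 30625 and 34062 and its partner HSPE1 (HSP10) 12446, 11837 and 11829. A dimmer HSPD1 probe set, at 301, 194 and 241, was 1.55-fold lower in the CisR array. These genes lie head to head, and 204 bases of a promoter of each are the same DNA.

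**Figure D3:**
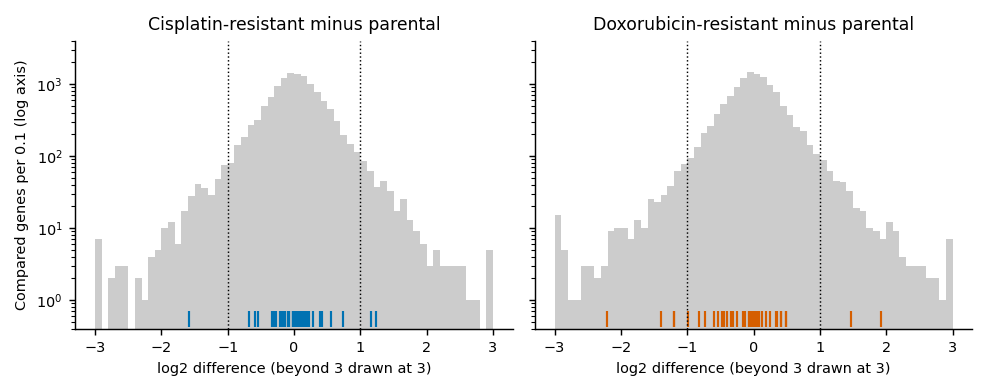
Histograms of the log2 difference from parental over all 12699 and 12599 compared genes on a log axis, with a tick for each of the 41 compared members and dotted lines at 2-fold. In both panels most ticks lie in the centre, and 3 ticks in the CisR and 6 in the DoxR panel lie past the dotted lines.

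J-domain proteins, which deliver clients to HSP70 and stimulate its ATPase, included the only members higher at 2-fold. DNAJC12, a co-chaperone of the aromatic amino acid hydroxylases, had signals of 446, 991 and 1683 in the parental, CisR and DoxR arrays. The parental array was the lowest and the DoxR the highest. A further probe set followed the same order at 186, 544 and 908, and was 2.93-fold and 4.88-fold higher than parental. The third, at 133, 80.5 and 444, was 1.66-fold lower in the CisR array and 3.33-fold higher in the DoxR one. All 3 probe sets were thus past 2-fold in the DoxR array, and they disagreed in direction in the CisR array.

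DNAJC6 (auxilin), which with HSC70 uncoats clathrin vesicles, had signals of 165, 389 and 460. Both sublines were above parental and close to each other, and the other probe set of the gene was under the floor on every array. At a floor of 440 units the log2 difference in DoxR was 0.06. The 14 nearest compared genes had median log2 differences of 0.09 and 0.14 around DNAJC6 on chromosome 1, and of -0.04 and -0.08 around DNAJC12 on chromosome 10, in the CisR and DoxR arrays. GAK, the widely expressed relative of auxilin, had 2851, 2920 and 2476.

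The general HSP70 partner DNAJB1 (HSP40) had signals of 3592, 4178 and 2577, highest in the CisR and lowest in the DoxR array. Its other probe set gave 2596, 2927 and 1501, the same order, and was 1.73-fold lower than parental in the DoxR array. DNAJA1 had 14076, 15415 and 11070. Its other probe set was lower than parental in both sublines, at log2 differences of -0.21 and -0.30. DNAJC5, the cysteine string protein of secretory vesicles, had 1085, 1192 and 718. It was 1.51-fold lower than parental in the DoxR array by this probe set, and its other probe sets gave 1.07-fold and 1.16-fold lower.

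DNAJB6, which suppresses aggregation of polyglutamine proteins, had signals of 1120, 698 and 1188, with the CisR array 1.61-fold lower than parental. The 2 probe sets annotated to DNAJB6 and TMEM135 did not show this, at 1608, 1680 and 2133 and at 3004, 3227 and 3877. DNAJB4 went both ways in the CisR array, with 1 probe set 1.48-fold higher (769, 1137 and 797) and the other 1.35-fold lower (657, 487 and 445). DNAJB5 rested on a parental value under the floor (58.1, 128 and 91.7), at least 1.66-fold higher in the CisR array. DNAJA3, a mitochondrial J-domain protein, had 5180, 5230 and 6592, and both of its probe sets were higher in the DoxR array, by 1.27-fold and 1.22-fold. DNAJA2, DNAJA4 and DNAJB2 had log2 differences from parental of -0.54 to 0.11. Of the 12 members of the group, 2 were higher at 2-fold and none lower in each subline, where 2.82% of all compared genes were higher in CisR and 2.99% in DoxR.

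**Figure D4:**
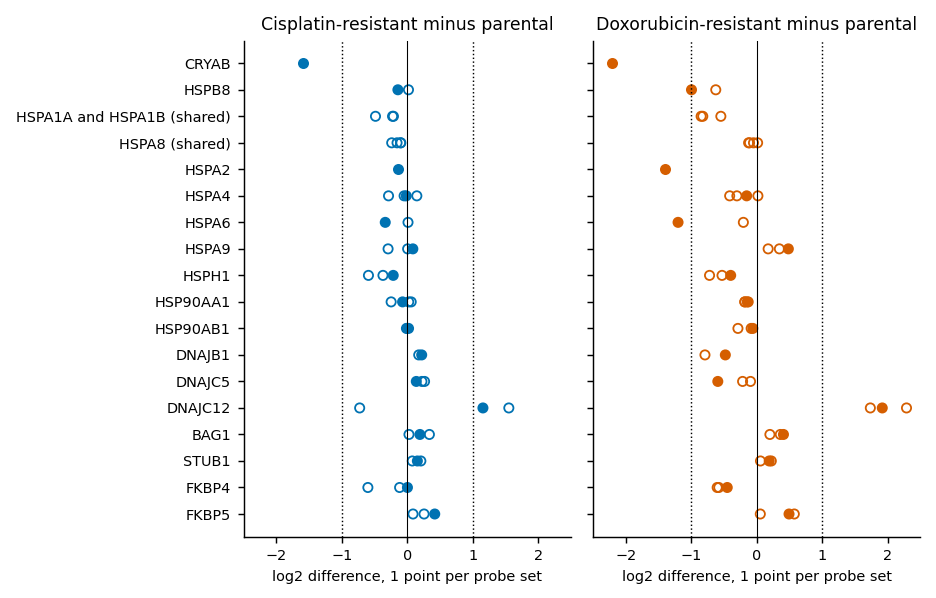
Log2 difference from parental of each probe set above the floor on at least 1 of the 2 arrays, for 18 genes or gene pairs, with filled points for the probe set that stands for the gene and open points for the others, and dotted lines at 2-fold. The shared HSPA1A and HSPA1B probe sets all lie left of 0, the DNAJC12 probe sets split between -0.73 and 1.55 in the CisR array, and all 3 lie right of 1 in the DoxR array.

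Co-chaperones that act on HSP70 were all within 2-fold, a limit passed by 5.4% of all compared genes in CisR and 5.75% in DoxR. The nucleotide exchange factor BAG1 had signals of 2090, 2385 and 2773, highest in the DoxR array at 1.33-fold. The ubiquitin ligase STUB1 (CHIP), which marks HSP70 clients for degradation, had 11374, 12638 and 12982, and its 3 probe sets were between 1.04-fold and 1.17-fold above parental in both sublines. BAG2, an inhibitor of STUB1, had 2211, 2177 and 2100, and the exchange factor HSPBP1 had 1307, 1152 and 1352. Log2 differences of this group ran from -0.18 to 0.21 in the CisR and from -0.07 to 0.41 in the DoxR array.

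Co-chaperones of HSP90 included a pair of related immunophilins with opposite signs in the DoxR array. FKBP5 (FKBP51), which slows steroid receptor activation, had signals of 1580, 2111 and 2225 and was 1.34-fold and 1.41-fold higher than parental. FKBP4 (FKBP52), which favours it, had 3224, 3226 and 2360, with the DoxR array 1.37-fold lower. The next brightest probe set gave 1.19-fold and 1.49-fold higher for FKBP5 and 1.09-fold and 1.49-fold lower for FKBP4. The 14 nearest compared genes of FKBP4 on chromosome 12 had a median log2 difference of -0.30 in the DoxR array. Less the median of its neighbours, FKBP4 was at -0.15 and FKBP5 at 0.51 in that array. The kinase adaptor CDC37 had 2797, 3164 and 2260, and STIP1 (HOP), which links HSP70 to HSP90, had 5297, 4980 and 4467. PTGES3 (p23), which holds HSP90 closed on its client, had 27911, 27957 and 27813, log2 differences of 0.00 and -0.01. None of the 5 compared members reached 2-fold in either subline, where 5.4% of all compared genes did in CisR and 5.75% in DoxR.

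HSF1, the factor that switches on much of the set, had signals of 945, 931 and 851, with log2 differences of -0.02 and -0.15. Its other probe set, at 138, 126 and 161, gave -0.13 and 0.22. SERPINH1 (HSP47), the collagen chaperone of the endoplasmic reticulum, had 2200, 1813 and 1318 on its only probe set, 1.67-fold lower in the DoxR array.

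The third comparison set the sublines against each other. HSPA2 was the only 1 of 41 members past 2-fold, 2.39-fold lower in the DoxR than in the CisR array, against 6.37% of 12593 compared genes past 2-fold either way, 3.05% higher and 3.32% lower. At 1.5-fold, 7 members were lower and 2 higher (9.91% and 9.16% of all genes), 9 in all against 19.1%. The lower ones were CRYAB, HSPB8, HSPA2, HSPA6, HSPA12A, DNAJB1 and DNAJC5, and the higher ones DNAJB6 and DNAJC12, at 1.70-fold each. The median was -0.14 over the members and -0.01 over all genes, and 28 of 41 members lay below 0 (51.3% of all genes). This comparison shares an array with each of the others.

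Other chaperone genes, 79 in 6 lists of which 73 had a probe set of their own, were mostly within 2-fold. Of those compared with parental, 2 of 69 passed 2-fold in the CisR and 1 of 68 in the DoxR array, shares of 2.90% and 1.47% against 5.4% and 5.75% of all compared genes. DNAJC15, a J-domain protein of the mitochondrial inner membrane, had signals of 1856, 534 and 2401 and was 3.48-fold lower in the CisR and 1.29-fold higher in the DoxR array. HSPB9, a testis small heat shock protein, had 59.2, 170 and 76.6, at least 2.20-fold higher than parental in the CisR array. Its parental and DoxR signals were under the floor. CLPB, a mitochondrial disaggregase, had 611, 1009 and 1383, 2.26-fold higher in the DoxR array.

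Most chaperones of the endoplasmic reticulum had lower signals in the CisR than in the parental array, and none reached 2-fold. Over all compared genes 5.4% did. Of 14 compared, 13 lay below parental (47.9% of all genes) and 5 of them past 1.5-fold (8.26% of all genes). The median log2 difference of the list was -0.45, against 0.02 over all genes. HSPA5 (BiP), the HSP70 of that compartment, had signals of 13378, 8447 and 12984, and HSP90B1 (GRP94) had 1889, 1149 and 1596. In the DoxR array the list had a median of -0.04. Only PDIA4, a disulfide isomerase, differed by 2-fold between the sublines, 2.00-fold higher in the DoxR one. The TRiC chaperonin, which folds actin and tubulin, had medians of 0.04 and -0.04 over 7 subunits, and prefoldin, which hands it clients, 0.02 and 0.00 over 5, in the CisR and DoxR arrays.

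**Figure D5:**
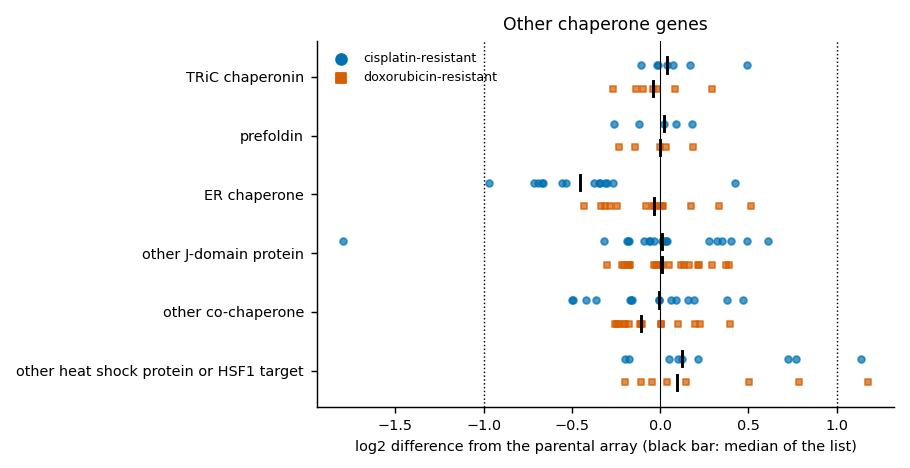
Log2 difference from parental of other chaperone genes in 6 lists, 1 point per gene, with circles for the CisR and squares for the DoxR array, black bars for medians and dotted lines at 2-fold. The circles of the endoplasmic reticulum (ER) list lie to the left around a median of -0.45, while its squares centre on -0.04, and the single circle near -1.80 is DNAJC15.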

How the data were processed

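Total RNA of 3 lines was measured with 1 array each, and lines were grouped by the sample labels. The values were deposited as a linear signal intensity per probe set, and per the submitters' processing notes the algorithm was MAS5, of unstated version. MAS5 subtracts mismatch signal, which makes low values noisy, and all 3 trimmed means were equal, the form a global scaling gives.

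Of 54675 probe sets, 41097 had 1 gene symbol in the platform annotation, and 41043 of these were updated by Entrez identifier to RefSeq symbols. Probe sets of several symbols named no gene. Log2 differences were called at 2-fold. With 1 array per line the number of arrays limits the precision, and no test was run. Named members were those past 2-fold in any comparison, the 2 brightest of each role, and the small heat shock, HSP70, HSP90 and heat shock factor groups. Other members, GAK, HSPA5 and HSP90B1 were added after their values were seen. The members and lists were chosen with earlier results of these data known. Alternatives changed the floor, pseudocount, probe set choice, scaling, chromosomal neighbourhood and fold. Python 3.11.15, pandas 2.3.3 and matplotlib 3.10.9 were used.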

Additional observations from a re-analysis of the deposited data

How the results depend on the processing

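The counts of members past 2-fold changed with the floor and with the fold that counts as called. With the floor at the 75th percentile of all values (440 units), 1 member passed in CisR and 1 in DoxR against parental, DNAJC12 in each case, and 0 between the sublines. In CisR and in DoxR this was 1 of 34 compared members, against 2.76% and 3.13% of all compared genes. CRYAB then stood at -0.11 in each, HSPA12A at -0.59 and DNAJC6 at 0.06 in DoxR, while HSPA2 and HSPA6 lay wholly under that floor and had no value. With the floor at the 25th percentile, 4 of 42 members passed in CisR and 6 of 42 in DoxR, against 11.8% and 12.2% of all compared genes. The share of members in DoxR was thus nearer to that of all genes at both other floors. The count between the sublines was 3 at the 25th percentile, and with no floor and a pseudocount of 32 it was 2. The share over all compared genes is not given for these counts between the sublines. In the other comparisons that share rose at the lower floor, so these counts are not a result about the members. At 1.5-fold in place of 2-fold the counts were 6, 10 and 9, where 17.6%, 17.7% and 19.1% of all compared genes passed. HSPA6 lost its call in DoxR with the median over probe sets (-0.70) and with the median of 7 neighbouring genes on each side subtracted (-0.82). HSPB8 passed 2-fold in DoxR with median centring and, at -1.06, with neighbours subtracted, as did HSPA1L at -1.11. Counting probe sets of several symbols, chosen after seeing the data, left the counts at 3, 6 and 1. No called member reversed under any setting run, and the members' median ran from -0.11 to 0.03 in CisR, from -0.15 to -0.05 in DoxR and from -0.16 to -0.07 between the sublines. No paired analysis was possible because each line has 1 array. Signal near the floor limits HSPA1L, HSPA6, DNAJB5, the sublines' CRYAB values and the DoxR value of HSPA2, the one member past 2-fold between the sublines.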
